A study of Mus musculus with 10 samples.

Results

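The genes followed here carry the calcium signal of the B cell from the plasma membrane to the nucleus. They number 10 and were chosen by name, with earlier results of these data known. Their counts therefore stand beside the shares of all tested genes as description only. They are the store sensors Stim1 and Stim2, the entry channel Orai1 and the calcineurin subunits Ppp3ca, Ppp3cb and Ppp3r1. The others are the calcineurin inhibitor Rcan1 and the transcription factors Nfatc1, Nfatc2 and Nfatc3. All 10 were among the 17658 genes of the deposited table, and all 10 passed the expression filter used for testing, an average over the 10 libraries no lower than 1 FPKM, which 10225 genes met. The study measured messenger RNA of C57BL/6 mouse B cells, purified by magnetic negative selection from spleen plus lymph node at an age of 10 weeks. Its 4 groups were unstimulated Nr4a1+/+ (wild-type) cells in 1 library, unstimulated Nr4a1-/- (knockout) cells in 1 library, and cells of each genotype given 10 µg/mL anti-IgM for 2 hours, in 4 libraries per genotype with the letters A to D. Anti-IgM crosslinks the B cell antigen receptor, and Nr4a1 encodes the nuclear receptor Nur77, an early response gene of that receptor. The stated aim was to identify genes induced by the receptor whose levels depend on genotype. Nothing in the labels ties a letter to a mouse, so p-values measure only the spread between these libraries, which may be technical.

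When the antigen receptor is engaged, inositol trisphosphate opens calcium channels of the endoplasmic reticulum and the store empties. Stim proteins sense the emptied store and open Orai channels in the plasma membrane. The entering calcium, bound to calmodulin, switches on the phosphatase calcineurin, which consists of a catalytic and a regulatory subunit. Calcineurin removes phosphate from NFAT factors, and these move into the nucleus. Rcan1 binds and restrains calcineurin and is a known NFAT target gene, and Nfatc1 is known to be switched on by NFAT itself in lymphocytes.

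Values are FPKM, RNA fragments counted per kilobase of a transcript and relative to library size, so levels of different genes are compared per length. The FPKM of all genes summed to 674961 in the unstimulated wild-type library, to 595500 in the unstimulated KO-labelled library, and to between 557214 and 571784 in the 8 stimulated libraries. Nr4a1 itself differed little between the genotypes. It stood at 126 FPKM in both unstimulated libraries, and after anti-IgM at 808.1 ± 47.2 FPKM (wild type) and 702.1 ± 44.6 FPKM (KO-labelled; SD, n = 4 each), with overlapping groups. The stimulated difference was called lower in the KO-labelled libraries (log2 -0.20, SE 0.0531, limma adjusted p = 0.0432), and in 10 of 20 alternatives. The labels do not say which part of the gene the knockout allele removes, so knockout libraries are called KO-labelled below and directions follow the labels. The B cell markers Cd79a, Cd79b, Ms4a1, Pax5 and Cd22 summed to 3577 and 3339 FPKM without stimulation and to between 1088 and 1209 FPKM after it. The 8 T cell markers summed to between 1.02 and 1.93 FPKM over the 10 libraries and the 3 NK cell markers found to between 0.04 and 0.52 FPKM. The 6 myeloid markers summed to 72.8 and 89.3 FPKM without stimulation, to between 38.1 and 137.7 FPKM in stimulated wild-type libraries and to between 23.2 and 100.96 FPKM in the stimulated KO-labelled ones. The 4 plasma cell markers summed to between 46.8 and 56.9 FPKM over the 10 libraries. The 4 erythroid markers found summed to 97.7 FPKM in the unstimulated wild-type library, 33.9 FPKM in the unstimulated KO-labelled one, and between 5.12 and 56.5 FPKM after anti-IgM. The part of these markers in the results was not tested. None of these lists had a marker at 0 in all libraries. In bulk RNA, fewer cells of a type and less RNA per cell cannot be told apart.

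Promoter windows from RefSeq (GRCm38.p6, from 250 bases before to 50 bases after a start) were at hand for 8 of the 10 genes, 11 windows in all; Nfatc1 and Ppp3ca had no entry. They were searched for the NFAT core GGAAA on both strands, so that TTTCC on the printed strand is a core on the other strand. A core was found in 5 of the 11 windows, against 61.3% of all 32851 windows of the same length. The 250 bases before the start are shown for 3 genes whose levels behaved differently after anti-IgM. Orai1 rose, Rcan1 rose by less and Nfatc2 fell. Capitals mark the cores.
Orai1, chr5:123014824-123015073, plus strand: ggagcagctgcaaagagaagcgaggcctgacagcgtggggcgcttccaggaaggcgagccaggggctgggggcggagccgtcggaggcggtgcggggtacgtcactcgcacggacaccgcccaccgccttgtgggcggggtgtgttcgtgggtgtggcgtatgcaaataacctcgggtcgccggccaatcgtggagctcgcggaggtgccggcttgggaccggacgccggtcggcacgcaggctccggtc
Rcan1, upstream start, chr16:92466170-92466419, minus strand: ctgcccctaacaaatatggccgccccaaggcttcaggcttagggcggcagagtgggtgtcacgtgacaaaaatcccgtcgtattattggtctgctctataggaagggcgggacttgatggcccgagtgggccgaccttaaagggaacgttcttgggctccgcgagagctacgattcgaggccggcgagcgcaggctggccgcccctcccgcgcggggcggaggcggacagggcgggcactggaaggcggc
Rcan1, downstream start, chr16:92400079-92400328, minus strand: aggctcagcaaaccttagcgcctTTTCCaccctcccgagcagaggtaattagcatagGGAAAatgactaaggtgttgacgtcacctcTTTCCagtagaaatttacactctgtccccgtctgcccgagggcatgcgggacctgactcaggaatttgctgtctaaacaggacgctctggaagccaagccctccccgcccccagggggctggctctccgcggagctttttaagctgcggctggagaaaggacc
Nfatc2, upstream start, chr2:168601658-168601907, minus strand: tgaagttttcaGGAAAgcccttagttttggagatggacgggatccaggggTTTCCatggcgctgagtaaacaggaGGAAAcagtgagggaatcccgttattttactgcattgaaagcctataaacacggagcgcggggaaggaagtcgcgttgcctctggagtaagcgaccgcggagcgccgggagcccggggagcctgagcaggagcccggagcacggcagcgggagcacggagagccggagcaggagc
Nfatc2, downstream start, chr2:168590366-168590615, minus strand: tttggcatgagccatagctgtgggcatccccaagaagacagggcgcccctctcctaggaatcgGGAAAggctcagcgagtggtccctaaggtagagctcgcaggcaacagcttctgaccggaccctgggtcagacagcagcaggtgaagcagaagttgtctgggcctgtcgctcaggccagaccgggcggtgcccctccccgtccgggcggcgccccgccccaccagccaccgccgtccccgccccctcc

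The window at the downstream Rcan1 start held 3 cores, at positions -227, -193 and -163 from the start, and 1 AP-1 sequence (TGACTCA or TGAGTCA, the same site on either strand). Of all windows, 9.42% held at least 3 cores and 5.2% an AP-1 sequence. The window at the upstream Rcan1 start held no core. The table gives 1 value for Rcan1, so transcripts from its starts were not told apart, and the same holds for Nfatc2. Nfatc2 had 3 cores before its upstream start, at -239, -200 and -175, and 1 before its downstream start, at -187. Ppp3cb had 4 in its window, the most of the 11, and Nfatc3 had 1 at 1 of its starts. Orai1 had none in its window, which was 70.3% G and C with 36 CpG, and neither had Stim1, Stim2 and Ppp3r1. Of the Orai1 bases shown, 79 overlap an exon of the antisense gene Gm2479. A match describes letters only, and no match says only that these letters are not in this window.

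Before stimulation Nfatc3 was the most abundant of the 10 genes in both libraries, at 90.6 FPKM (wild type) and 110.1 FPKM (KO-labelled), and Nfatc2 the least, at 2.37 and 4.39 FPKM. Ppp3ca, Ppp3r1 and Ppp3cb lay between 43.7 and 62.7 FPKM. Nfatc1 stood below these in wild type (32.6 FPKM) and above them in the KO-labelled library (59.9 FPKM). Stim1, Orai1, Stim2 and Rcan1 followed in that order in both libraries, between 5.22 and 17.8 FPKM. After anti-IgM Nfatc1 stood highest in all 8 libraries and Nfatc3 next. In wild type Ppp3cb and Orai1 overlapped as the third and the fourth, and Stim1 and Rcan1 overlapped further down. In the KO-labelled libraries no neighbours in the order overlapped, and Orai1 stood above Ppp3cb. Orai1 had been the seventh of the 10 in both unstimulated libraries.

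**Figure D1:**
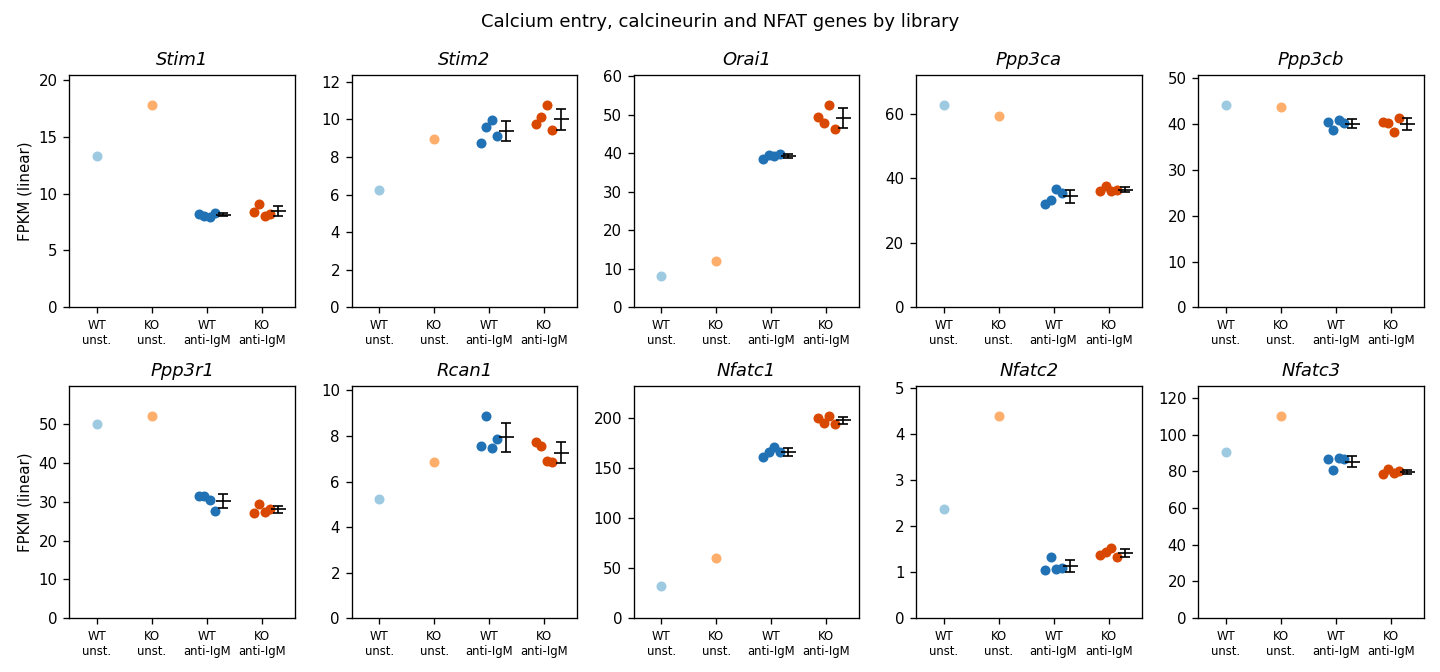
FPKM (linear axis from 0) of each of the 10 genes in every library; points are libraries (WT wild type, KO labelled as knockout, unst. unstimulated), and bars beside the stimulated groups are the mean and SD of 4. Of the 10 genes, Nfatc1 and Orai1 are those whose stimulated groups do not overlap, with 161 to 172 against 194 to 202.3 FPKM and 38.4 to 39.8 against 46.4 to 52.5 FPKM.

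The effect of anti-IgM was tested by limma on log2(FPKM + 1), in a model of all 10 libraries that also held genotype. All log2 changes below use these values. Adding 1 makes the change of low genes such as Nfatc2 look smaller than it is. Each genotype had 1 unstimulated library, so the spread between unstimulated libraries of a genotype was not measured. The p-values for anti-IgM take these libraries to vary as the stimulated ones do. At a Benjamini-Hochberg adjusted p under 0.05, 4 of the 10 genes rose (Orai1, Nfatc1, Stim2 and Rcan1) and 6 fell (Nfatc2, Stim1, Ppp3r1, Ppp3ca, Nfatc3 and Ppp3cb). Over all tested genes 31.2% were called higher and 47.7% lower, so a call is common in this comparison. A log2 rise of 1 or more, reached by 7.94% of all tested genes, was found for Orai1 and Nfatc1. No member fell by that much, against 12.4% of all tested genes. The median change was -0.20 over the 10 genes and -0.17 over all tested genes. The latter was -0.029 after rescaling every library to the same sum (TPM), 0.035 with median-of-ratios scaling and 0.0042 with quantile normalization, and the share of calls that were rises went from 39.5% to 48.9%, 53.8% and 50.6%. Changes are therefore to be read against that shift. All 8 stimulated libraries lay above both unstimulated ones for 2 of the 10 genes (28.6% of all tested genes) and below both for 6 (44.3%).

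Orai1 (chr5:123015074-123030456, plus strand, GENCODE M21) encodes the pore of the calcium entry channel. Without stimulation it held 8.24 FPKM in wild type against 12.04 FPKM in the KO-labelled library. After anti-IgM its values were 38.4, 39.6, 39.3 and 39.8 FPKM in wild-type libraries A to D, while the KO-labelled ones held 49.4, 48.0, 52.5 and 46.4 FPKM. Every stimulated library was above both unstimulated ones, and the mean was 4.77 times the unstimulated value in wild type and 4.07 times in the KO-labelled libraries. The log2 change was 2.03 (SE 0.0542, limma adjusted p = 1.07e-10). It was between 1.70 and 2.25 and called in all 21 alternatives.

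In this fit the sensors moved in opposite directions, though the rise of Stim2 was not called in every alternative. Stim1 (chr7:102267806-102437319, plus strand, GENCODE M21), the more abundant sensor before stimulation, had unstimulated values of 13.3 FPKM (wild type) and 17.8 FPKM (KO-labelled). After anti-IgM it held 8.22, 8.07, 7.96 and 8.27 FPKM in wild-type libraries A to D and 8.42, 9.12, 8.07 and 8.23 FPKM in the KO-labelled ones. All 8 were below both unstimulated values, and the log2 change was -0.82 (SE 0.0744, limma adjusted p = 1.29e-06). Stim2 (chr5:53998499-54121057, plus strand, GENCODE M21) is known to respond to smaller losses of stored calcium. It was at 6.23 and 8.94 FPKM before stimulation, and afterwards at 8.75, 9.62, 9.98 and 9.14 FPKM in wild type and 9.74, 10.11, 10.76 and 9.45 FPKM in the KO-labelled libraries. Stimulated wild-type library A thus lay below the unstimulated KO-labelled library. The log2 change of Stim2 was 0.33 (SE 0.0843, limma adjusted p = 0.0036), and without the unstimulated wild-type library it was 0.15 (limma adjusted p = 0.142). The ratio of Stim1 to Stim2 within a library, which does not depend on the scale between libraries, was 2.14 and 1.99 in the unstimulated libraries and between 0.75 and 0.939 in the stimulated ones. Each unstimulated library held more Stim1 than Stim2 per length, and each stimulated library less. The ratio of Orai1 to Stim1 went from 0.618 and 0.678 to 4.83 ± 0.117 in wild type and 5.82 ± 0.522 in the KO-labelled libraries (SD, n = 4 each).

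Among the calcineurin genes Ppp3ca and Ppp3r1 fell under every scaling, and the direction of Ppp3cb depended on it. Ppp3ca (chr3:136670124-136937727, plus strand, GENCODE M21), the catalytic alpha subunit, was at 62.7 and 59.4 FPKM before anti-IgM. It then held 32.2, 33.3, 36.6 and 35.6 FPKM in wild-type libraries A to D and 36.2, 37.6, 36.1 and 36.3 FPKM in the KO-labelled ones (log2 change -0.77, SE 0.0546, limma adjusted p = 1.64e-07). Ppp3r1 (chr11:17159263-17200375, plus strand, GENCODE M21), the regulatory subunit, was at 50.2 and 52.2 FPKM before. It then held 31.6, 31.4, 30.5 and 27.8 FPKM in wild type and 27.2, 29.3, 27.4 and 28.2 FPKM in the KO-labelled libraries (log2 change -0.79, SE 0.0576, limma adjusted p = 1.97e-07). For both genes all 8 stimulated libraries were below both unstimulated ones. The values of Ppp3r1 are uncertain in so far as 14.3% of its exonic bases are shared with Wdr92 on the same strand.

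Ppp3cb (chr14:20499364-20546573, minus strand, GENCODE M21), the catalytic beta subunit, changed least of the 10 genes in this fit. It was at 44.1 and 43.7 FPKM before anti-IgM, and after it at 40.5, 38.7, 40.9 and 40.4 FPKM in wild type and 40.4, 40.3, 38.2 and 41.4 FPKM in the KO-labelled libraries. Its log2 change of -0.13 (SE 0.0405, limma adjusted p = 0.0119) was smaller in size than that of the median gene. It was 0.030 on the TPM scale (limma adjusted p = 0.634) and 0.10 with median-of-ratios scaling (limma adjusted p = 0.0467). With quantile normalization it was -0.21 (limma adjusted p = 0.00082). It was not called with array weights (-0.13, limma adjusted p = 0.190) or the replicate block (-0.12, limma adjusted p = 0.127).

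The unequal changes altered the make-up of the catalytic subunits. The gamma subunit gene Ppp3cc, from the wider pathway list, held 25.5% and 26.0% of the summed FPKM of Ppp3ca, Ppp3cb and Ppp3cc before stimulation, then 14.7% ± 0.85 in wild type and 13.4% ± 0.857 in the KO-labelled libraries (SD, n = 4 each). The share of Ppp3cb went from 30.8% and 31.4% to 45.9% ± 1.30 and 45.3% ± 0.663. That of Ppp3ca went from 43.7% and 42.6% to 39.4% ± 1.12 and 41.3% ± 1.002. The most abundant catalytic transcript was thus alpha in both unstimulated libraries and beta in all 8 stimulated ones. The 3 genes summed to 143.5 and 139.4 FPKM before and to 87.4 ± 2.82 and 88.5 ± 1.77 FPKM after anti-IgM.

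Rcan1 (chr16:92391953-92470867, minus strand, GENCODE M21) was low, and its rise was smaller than those of Orai1 and Nfatc1. Without stimulation it held 5.22 FPKM in wild type against 6.87 FPKM in the KO-labelled library. After anti-IgM it held 7.55, 8.88, 7.48 and 7.86 FPKM in wild-type libraries A to D and 7.74, 7.56, 6.92 and 6.86 FPKM in the KO-labelled ones. KO-labelled library D lay just under the unstimulated library of its genotype. The mean was 1.52 times the unstimulated value in wild type and 1.06 times in the KO-labelled libraries. The log2 change was 0.30 (SE 0.0991, limma adjusted p = 0.0174). It was also called on the TPM scale (0.43), by median-of-ratios (0.50) and with quantile normalization (0.67). It was not called with array weights (0.30, limma adjusted p = 0.154) or the replicate block (0.31, limma adjusted p = 0.0759). Without the unstimulated wild-type library it was 0.070.

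The NFAT genes moved apart. Nfatc1, the factor known for autoregulation, went from 32.6 FPKM to 161, 166.2, 171.6 and 165.9 FPKM in wild-type libraries A to D, and from 59.9 FPKM to 199.8, 195.3, 202.3 and 194 FPKM in the KO-labelled libraries. Both groups were far above both unstimulated libraries, and the log2 change was 2.01 (SE 0.0992, limma adjusted p = 8.06e-09). Nfatc2 (chr2:168476410-168601657, minus strand, GENCODE M21), a factor known to be present before activation in lymphocytes, went from 2.37 FPKM to 1.04, 1.32, 1.07 and 1.08 FPKM in wild type and from 4.39 FPKM to 1.37, 1.43, 1.52 and 1.32 FPKM in the KO-labelled libraries. All 8 stimulated libraries were below both unstimulated ones (log2 change -0.91, SE 0.111, limma adjusted p = 1.56e-05). Nfatc3, another factor present in resting lymphocytes, was at 90.6 FPKM before and 86.4, 80.7, 87.0 and 86.6 FPKM after anti-IgM in wild type. In the KO-labelled libraries it went from 110.1 FPKM to 78.8, 81.0, 79.1 and 80.1 FPKM. All 8 stimulated libraries were again below both unstimulated ones, by little in wild type. The log2 change of Nfatc3 was -0.27 (SE 0.0681, limma adjusted p = 0.00316). Without the unstimulated KO-labelled library it was -0.089 (limma adjusted p = 0.103), and it was -0.11 on the TPM scale (limma adjusted p = 0.297) and -0.041 with median-of-ratios scaling (limma adjusted p = 0.562). With quantile normalization the fall of Nfatc3 was larger and was called (-0.48, limma adjusted p = 3.45e-05). Of the exonic bases of Nfatc3, 1.87% are shared with Esrp2 on the opposite strand.

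As a share of the 3 NFAT transcripts within a library, Nfatc1 went from 26.0% in wild type and 34.4% in the KO-labelled library to 65.8% ± 0.913 and 70.9% ± 0.622 after anti-IgM (SD, n = 4 each). Nfatc3 went from 72.1% and 63.1% to 33.7% ± 0.959 and 28.6% ± 0.632. Nfatc2 went from 1.89% and 2.52% to 0.447% ± 0.0568 and 0.505% ± 0.0261. The leading NFAT transcript was Nfatc3 in both unstimulated libraries and Nfatc1 in all 8 stimulated ones. The 3 genes summed to 125.6 and 174.4 FPKM before and to 252.6 ± 5.32 and 279 ± 3.20 FPKM after anti-IgM. Gene-level values do not separate the isoforms of Nfatc1.

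**Figure D2:**
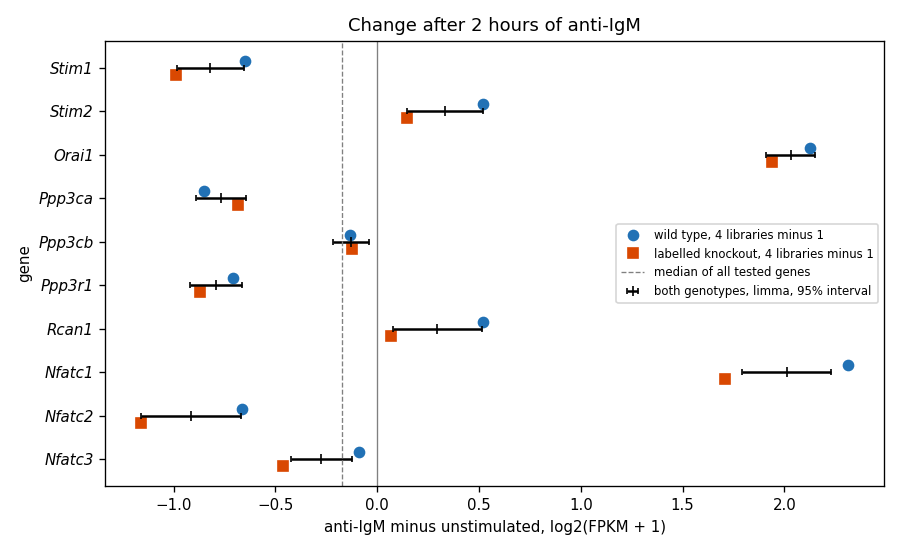
Change after anti-IgM (stimulated minus unstimulated, log2(FPKM + 1)) of each gene: circles are wild type and squares KO-labelled libraries, each 4 libraries minus 1, and bars are the limma fit over both genotypes with its 95% interval. Orai1 (2.03) and Nfatc1 (2.01) stand far to the right, and the dashed line is the median of all tested genes (-0.17).

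**Figure D3:**
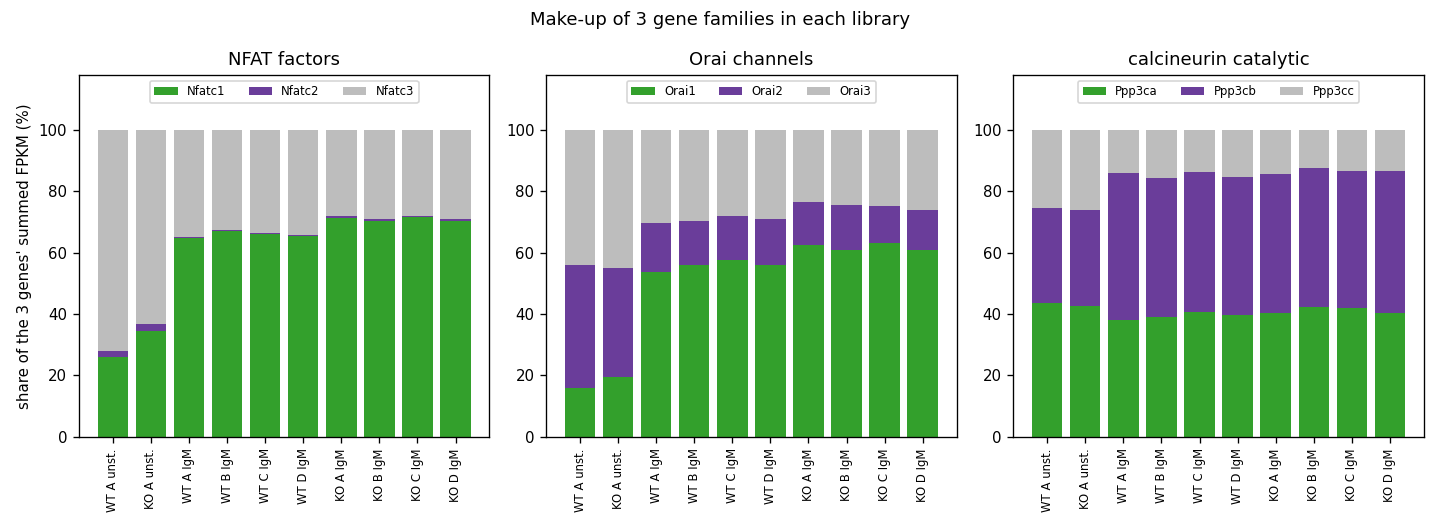
Share (%) of each gene in the summed FPKM of its family of 3 genes, 1 bar per library, for NFAT factors, Orai channels and calcineurin catalytic subunits. In the stimulated libraries Nfatc1 holds 64.8% to 71.5% of its family and Orai1 53.7% to 63.1%, against 34.4% and 19.3% at most in the unstimulated libraries.

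The replicated genotype comparison set the 4 stimulated KO-labelled libraries against the 4 stimulated wild-type libraries. Of the 10 genes 2 were called, Nfatc1 and Orai1, both higher in the KO-labelled libraries; these are also the genes with the largest rises after anti-IgM. Over all tested genes 3.91% were called higher and 5.81% lower. With median-of-ratios scaling 59.7% of the calls over all genes were higher, with quantile normalization 52.1%, against 40.2% here. For these 2 genes the groups of 4 did not overlap, as for 5.96% of all tested genes with the KO-labelled libraries higher, and for the other 8 they did; none was lower without overlap, against 9.57% of all tested genes. The median difference was 0.068 over the 10 genes and -0.024 over all tested genes. In limma 0 of the 10 were called lower, and at an unadjusted p under 0.05 the counts were 2 lower and 3 higher.

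Nfatc1 stood at 166.3 ± 4.22 FPKM in stimulated wild type and 197.9 ± 3.88 FPKM in the KO-labelled libraries (SD, n = 4 each), a ratio of 1.19. Its lowest KO-labelled library held 194 FPKM and its highest wild-type library 171.6 FPKM. The log2 difference was 0.25 (SE 0.0253, limma adjusted p = 0.000274). Orai1 stood at 39.3 ± 0.598 and 49.1 ± 2.60 FPKM (SD, n = 4 each), a ratio of 1.25, with a log2 difference of 0.31 (SE 0.0374, limma adjusted p = 0.000705). Both calls held in all 20 alternatives, with differences from 0.23 to 0.29 for Nfatc1 and from 0.28 to 0.36 for Orai1. The shares of Orai1 and Nfatc1 within their families, computed from the same FPKM, differed without overlap too. The shares of Orai3 and Nfatc3 were lower in the KO-labelled libraries without overlap. Shares within a family add up to the whole, so these are not differences separate from those of Orai1 and Nfatc1. In FPKM the groups overlapped for Orai3 (limma adjusted p = 0.432) and Nfatc3 (limma adjusted p = 0.0796), and neither was called. Those of Orai2, Nfatc2 and the calcineurin catalytic subunits overlapped. Orai1 held 55.8% ± 1.57 of the summed FPKM of Orai1, Orai2 and Orai3 in wild type and 61.9% ± 1.155 in the KO-labelled libraries (SD, n = 4 each). The share of Nfatc1 among the 3 NFAT transcripts reached 67.0% at most in wild type and was at least 70.3% in the KO-labelled libraries.

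For the other 8 genes the test did not pass. Nfatc3 came nearest, with a log2 difference of -0.093 (95% interval -0.158 to -0.029, limma adjusted p = 0.0796). It was called without wild-type library B (-0.12, limma adjusted p = 0.0177), which at 80.7 FPKM stood below the other wild-type libraries, and with quantile normalization (-0.11, limma adjusted p = 0.0477). Nfatc2 stood at 1.13 ± 0.129 and 1.41 ± 0.086 FPKM (SD, n = 4 each), with a difference of 0.18 (interval 0.022 to 0.34, limma adjusted p = 0.164). Its groups met at 1.32 FPKM, the highest wild-type library and the lowest KO-labelled one. Ppp3r1 differed by -0.11 (interval -0.208 to -0.0067, limma adjusted p = 0.196) and was called in 1 alternative, without wild-type library D (-0.15, limma adjusted p = 0.0453).

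The remaining genes had intervals that included 0. Rcan1 differed by -0.11 (interval -0.252 to 0.029, limma adjusted p = 0.344) and Stim2 by 0.087 (-0.034 to 0.207, limma adjusted p = 0.394). Ppp3ca differed by 0.086 (-0.0073 to 0.178, limma adjusted p = 0.267) and Stim1 by 0.050 (-0.052 to 0.152, limma adjusted p = 0.585). Ppp3cb had a mean of 40.1 FPKM in both groups, with an interval from -0.072 to 0.071 (limma adjusted p = 0.996).

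The unstimulated libraries give the genotype difference before anti-IgM, with 1 library each and no replicate check. The KO-labelled library held 1.85 times the wild-type FPKM of Nfatc2, 1.84 times that of Nfatc1, 1.46 times that of Orai1 and 1.43 times that of Stim2. For Stim1 the ratio was 1.33, for Rcan1 1.32 and for Nfatc3 1.22. The calcineurin subunits lay closer to equality, with ratios of 1.04 for Ppp3r1, 0.991 for Ppp3cb and 0.947 for Ppp3ca. On the log2 scale Nfatc1 (0.86) and Nfatc2 (0.68) were higher by at least 0.5, against 4.31% of all tested genes, and no member was lower by that much, against 2.76%. The median of all tested genes was 0.067, and 0.226 after rescaling to TPM. On that rescaled footing 5 of the 10 genes were higher by at least 0.5, Nfatc1 by 1.03, and Ppp3ca and Ppp3cb were 0.10 and 0.16 higher. The share of all tested genes was not counted on that footing, so these 5 are not to be read against 4.31%.

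**Figure D4:**
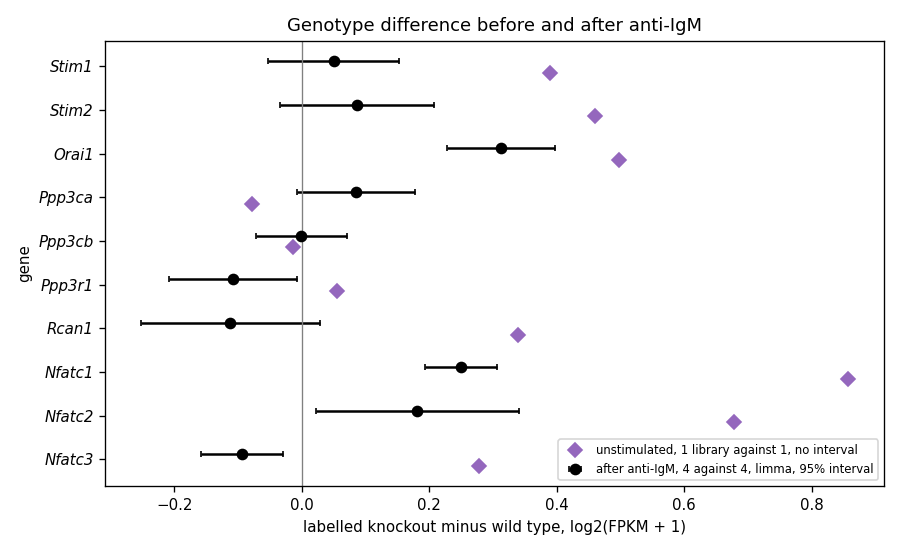
Difference between genotypes (KO-labelled minus wild type, log2(FPKM + 1)): circles with 95% limma intervals are 4 against 4 stimulated libraries, diamonds the single unstimulated libraries, which have no interval. For Nfatc1 the diamond (0.86) lies to the right of the circle (0.25), and for Ppp3cb both lie near 0.

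Whether the response itself differed between the genotypes was tested in 1 limma fit over all 10 libraries, which takes the single unstimulated libraries to vary as the stimulated ones do. Of the 10 genes 3 were called, each with a change that was less positive or more negative in the KO-labelled libraries. They were Nfatc1 (-0.61, SE 0.0571, limma adjusted p = 0.00108), Nfatc3 (-0.37, SE 0.0642, limma adjusted p = 0.00534) and Stim1 (-0.34, SE 0.0991, limma adjusted p = 0.0424). Over all tested genes 14.7% were called in that direction and 4.18% in the other, and the median was -0.096. On the TPM scale, which equalises the FPKM sums, 8 of the 10 genes were called in that direction. So were 3460 of the 10225 tested genes, with a median of -0.252. Calls in the other direction were 4.87% of all calls on the TPM scale, 34.3% by median-of-ratios and 41.9% with quantile normalization, against 22.1% without rescaling. In limma 0 of the 10 genes were called in the other direction, and 0 had an unadjusted p under 0.05 there.

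Nfatc1 after anti-IgM was 5.10 times its unstimulated level in wild type and 3.30 times in the KO-labelled libraries, while its FPKM after anti-IgM were higher in the latter. Nfatc3 stood at 94.0% of its unstimulated level in wild type and at 72.4% in the KO-labelled libraries, and Stim1 at 61.0% and 47.6%. Nfatc1 and Nfatc3 were called in all 19 alternatives that could be fitted. Stim1 was called in 10 of 19, with adjusted p up to 0.0886. These values rest on 1 unstimulated library per genotype, whose FPKM sums differed (674961 and 595500), and neither library can be left out of this fit.

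Orai1 changed by 2.12 in wild type and 1.94 in the KO-labelled libraries, a difference of -0.18 (95% interval -0.377 to 0.0081, limma adjusted p = 0.167). On the TPM scale it was -0.34 and called (limma adjusted p = 0.014). Rcan1 changed by 0.52 and 0.070 (difference -0.45, limma adjusted p = 0.0529), Stim2 by 0.52 and 0.15 (-0.37, limma adjusted p = 0.0597), and Nfatc2 by -0.67 and -1.16 (-0.50, limma adjusted p = 0.0553). Each of these 3 lay just above the threshold and passed it in 4 of its alternatives. Ppp3ca (0.16, limma adjusted p = 0.253), Ppp3cb (0.013, limma adjusted p = 0.923) and Ppp3r1 (-0.16, limma adjusted p = 0.292) did not pass. Ppp3r1 passed on the TPM scale (-0.33, limma adjusted p = 0.029).

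The genes whose levels over the 10 libraries were most like those of Orai1 were Egr3 (Pearson r = 0.9987), Egr1 (0.9986) and Smad3 (0.9984), among 7165 other genes averaging 5 FPKM or more. Of these, 1234 reached an r of 0.95, so such likeness was common. Smad3, a transcription factor of TGF-beta signalling, held 11.4 FPKM (wild type) and 20.6 FPKM (KO-labelled) without stimulation, and 85.4 and 112.4 FPKM on average after anti-IgM. The genes most like Nfatc2 were Irf2bpl (0.9898), Rap1gds1 (0.9859) and Fbxw4 (0.9832), and 144 genes reached 0.95. Irf2bpl was at 7.97 and 15.3 FPKM before and at 4.03 and 4.75 FPKM on average after anti-IgM. The libraries share their preparation and the stimulation step, and these correlations are descriptions.

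The rest of the pathway was read from a list of 41 other genes, of which 39 were in the table and 33 were tested. After anti-IgM 9 of the 33 rose, 16 fell and 8 did not pass, with a median change of -0.20, against 31.2% called higher, 47.7% called lower and a median of -0.17 over all tested genes. The number that rose was 14 on the TPM scale and 14 under median-of-ratios scaling. Rises over all tested genes were then 48.9% of 7569 calls and 53.8% of 7884 calls, against 39.5% of 8069 calls without rescaling. Both counts are therefore not to be read against 31.2%. The largest rises were those of Atp2a2 (1.35, limma adjusted p = 3.77e-10), the pump that refills the endoplasmic reticulum, and Atp2b1 (0.90, limma adjusted p = 7.78e-09), which exports calcium through the plasma membrane. Atp2a2 went from 27.0 and 30.9 FPKM to 74.5 ± 1.35 FPKM (wild type) and 75.6 ± 1.73 FPKM (KO-labelled; SD, n = 4 each). The largest falls were those of the calcineurin subunit Ppp3cc (-1.49), the inositol trisphosphate receptor Itpr3 (-1.27) and Stimate (-1.06, listed under its older symbol Tmem110), a regulator of Stim1, with limma adjusted p = 2.56e-06 for Tmem110 and lower for the other two. Ppp3cc went from 36.6 and 36.3 FPKM to 12.9 ± 0.796 and 11.9 ± 0.813 FPKM (SD, n = 4 each).

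Some further members of these groups are named here after their values were seen, and their counts stand beside 31.2% called higher and 47.7% called lower over all tested genes. Of 5 calcium release genes 3 fell (Plcg1, Plcg2 and Itpr3) and 0 rose in limma, with 0 at an unadjusted p under 0.05. Itpr2, not called at 0.11, was called higher on the TPM scale (0.26, limma adjusted p = 0.026), by median-of-ratios (0.33) and with quantile normalization (0.36). Of 5 tested genes of store-operated entry 4 fell, among them the channels Orai2 (-0.96, limma adjusted p = 1.83e-07) and Orai3 (-0.31, limma adjusted p = 0.00277). The fall of Orai3 was not called on the TPM scale (-0.15, limma adjusted p = 0.174) or with median-of-ratios scaling (-0.085, limma adjusted p = 0.290), nor without the unstimulated KO-labelled library (-0.13, limma adjusted p = 0.115). With quantile normalization the fall of Orai3 was called (-0.27, limma adjusted p = 0.00315). Within a library Orai1 held 16.02% and 19.3% of the 3 Orai transcripts before anti-IgM, Orai2 39.8% and 35.8%, and Orai3 44.1% and 44.9%. After it Orai1 was the most abundant of the 3 in all 8 libraries. The calmodulin genes Calm2 and Calm3 fell by 0.66 and 0.64 on the log2 scale and were called lower under each scaling. Of 7 kinases that phosphorylate NFAT 6 rose, from 0.11 for Csnk1a1 to 0.54 for Csnk1d, and Gsk3b fell (-0.87). Without the unstimulated wild-type library 3 rose, and the changes of Dyrk1a, Csnk1a1 and Csnk1e were 2.96e-05, 0.044 and 0.027 and not called. Csnk1a1 was at -0.093 with quantile normalization (limma adjusted p = 0.0561).

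Between the stimulated genotypes 4 of the 33 genes passed, with 3 higher and 1 lower in the KO-labelled libraries, against 9.72% of all tested genes. Atp2b1 had means of 37.6 ± 0.929 FPKM (wild type) and 43.6 ± 1.85 FPKM (KO-labelled; SD, n = 4 each), without overlap (log2 difference 0.21, SE 0.0352, limma adjusted p = 0.00534), and was called in all 20 alternatives. The pump Atp2a3 (0.15, limma adjusted p = 0.0335) and the kinase Dyrk2 (0.12, limma adjusted p = 0.0449) were higher and were each called in 9 of 20. Calm2 (-0.10, limma adjusted p = 0.0293) was lower and was called in 11 of 20. Atp2a3 and Calm2 kept their call when library D of either genotype was left out and lost it when any other was, with adjusted p up to 0.0918 and 0.0811. Dyrk2 kept it only without wild-type library C, with adjusted p up to 0.12.

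**Figure D5:**
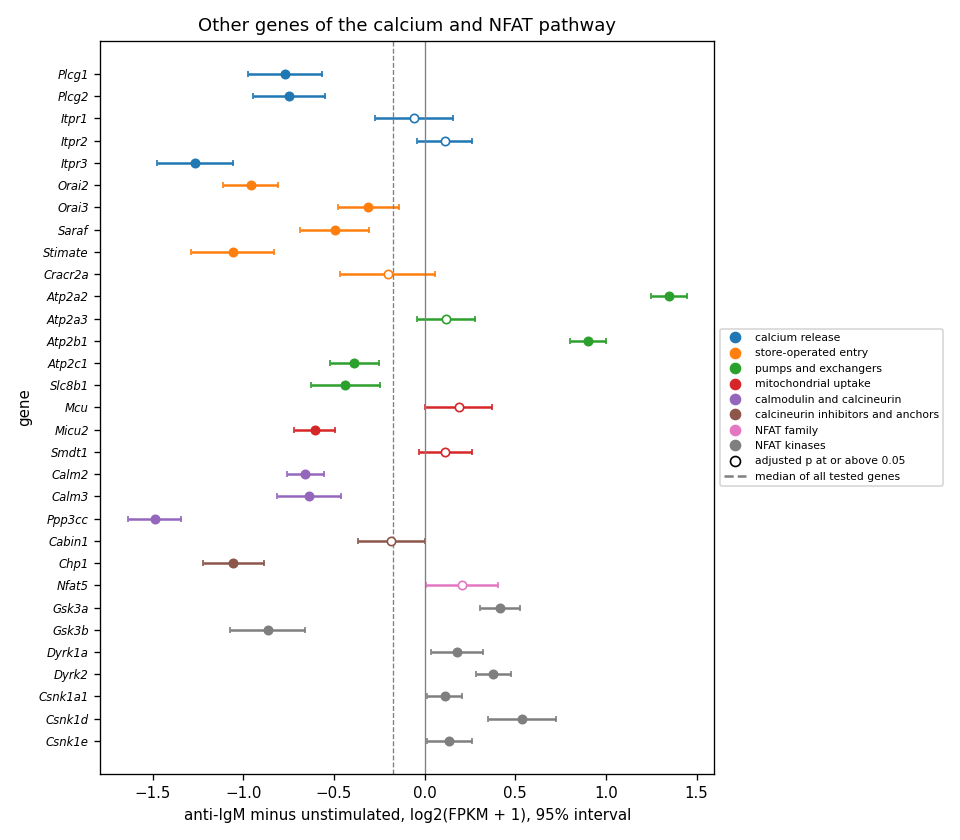
Change after anti-IgM (log2(FPKM + 1), limma, bars are 95% intervals) of 31 of the 33 tested pathway genes outside the 10, coloured by role; open circles have an adjusted p at or above 0.05 and the dashed line is the median of all tested genes. Atp2a2 (1.35) lies farthest to the right and Ppp3cc (-1.49) farthest to the left.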

How the data were processed

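Messenger RNA libraries (10) were prepared with a stranded kit, per the labels' protocols. The authors deposited 1 table of gene-level FPKM. Per the submitters' processing notes STAR 2.4, RSEM 1.2.14 and mm10 were used; which gene models, filters or strand setting were used is not given in the sources used here. FPKM are not counts, so no count model was fitted and the depth is unknown. FPKM were tested as log2(FPKM + 1) with limma 3.58.1 in R 4.3.3 (eBayes with trend) for genes averaging 1 FPKM or more, with Benjamini-Hochberg adjustment over all 10225, called under 0.05. Alternatives were other pseudocounts, filters, scalings and variance models, a replicate block and leaving out each library. Named were the 10 genes, pathway genes called between genotypes, the 3 largest called rises and falls with anti-IgM (1 rise is not reported here), and the 3 genes most like Orai1 and Nfatc2. The members and lists were chosen with earlier results of these data known. Of the 41 pathway genes, 5 were matched by older symbols and 2 were not matched. Promoters are from RefSeq (GRCm38.p6) and gene spans from GENCODE M21. Some pathway and marker genes are counted in the tests but not reported here by name, in the plot of pathway genes or in the marker sums.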

Additional observations from a re-analysis of the deposited data

Results flagged for a closer look

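The 4 stimulated libraries of each genotype were examined for the 10 genes, Nr4a1 and the 4 pathway genes called between genotypes, 30 groups in all. In 3 groups 1 library's gap to the others passed Dixon's critical value at 95%, and chance gives about 1 in 20, or 1.5. Ppp3ca stood at 37.6 FPKM in KO-labelled library B, with the other 3 between 36.1 and 36.3 FPKM. Nfatc2 stood at 1.32 FPKM in wild-type library B, with the others between 1.04 and 1.08 FPKM. Nfatc3 stood at 80.7 FPKM in the same wild-type library B, with the others between 86.4 and 87.0 FPKM.

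The response to anti-IgM differed between the genotypes by the limma test of the difference for 3 of the 10 genes and 9 of the 33 other pathway genes tested, against 18.9% of all tested genes. The differences (KO-labelled minus wild type, log2(FPKM + 1)) were -0.61 for Nfatc1 (limma adjusted p = 0.00108), -0.37 for Nfatc3 (adjusted p = 0.00534) and -0.34 for Stim1 (adjusted p = 0.0424). In the release genes they were -0.48 for Plcg2 (limma adjusted p = 0.0118) and -0.36 for Itpr2 (adjusted p = 0.0105), and in the channel Orai3 -0.36 (adjusted p = 0.0354). They were -0.37 for the pump Atp2a3 (limma adjusted p = 0.014), -0.39 for Calm3 (adjusted p = 0.031) and 0.20 for Calm2 (adjusted p = 0.0339), the 1 positive value. Calm2 was at 0.027 on the TPM scale (limma adjusted p = 0.72) and at 0.13 with quantile normalization (adjusted p = 0.13), and was called in 12 of 19 alternatives, Orai3 in 10, Calm3 in 14, and Itpr2 and Chp1 in 18. They were -0.38 for Chp1 (limma adjusted p = 0.0223), a calcineurin inhibitor, and -0.36 and -0.49 for the kinases Dyrk1a (adjusted p = 0.00491) and Csnk1d (adjusted p = 0.00287). Each rests on 1 unstimulated library per genotype, with FPKM sums of 674961 (wild type) and 595500 (KO-labelled). The part of these sums in the differences was not tested.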

How the results depend on the processing

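The genotype calls of Orai1 and Nfatc1 held in all 20 alternatives, and the responses of Orai1, Nfatc1, Stim1, Ppp3ca and Ppp3r1 in all 21. The response of Nfatc2 held in all 20 alternatives that tested this gene. Where a count or direction moved, the cause was not tested unless the setting itself removes genes or libraries.

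Between stimulated genotypes, the 3 pathway genes called higher became 1 with TPM rescaling, 1 without the variance trend, 1 with the replicate block and 1 to 2 with a library left out. The 1 called lower became 0 with median-of-ratios scaling, 0 without trend, 0 with the replicate block and 0 to 1 with a library left out. Over all genes, 594 called lower became 377 with median-of-ratios scaling. Members called lower went from 0 to 1 with quantile normalization and 0 to 1 with a library left out. The difference of Ppp3cb (-0.00062) was 0.0042 with TPM, 0.042 with median-of-ratios, 0.0147 with quantile normalization, 0.0054 with array weights, and -0.0175 to 0.0216 with a library left out.

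For the anti-IgM response, pathway rises went from 9 to 14 with TPM and 14 with median-of-ratios scaling. The share of rises among calls over all genes went from 39.5% to 48.9% and 53.8%. With a size of at least 1 pathway rises were 1, and pathway falls went from 16 to 4. At that size members went from 4 higher and 6 lower to 2 and 0, and all genes to 812 higher and 1266 lower. Members called higher were 2 with array weights, 2 with the replicate block, and 2 to 4 with a library left out (2 without the unstimulated wild-type library). Ppp3cb turned to 0.030 with TPM and 0.10 with median-of-ratios scaling.

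For the difference in response, 427 genes called higher became 834 with no filter, 177 with TPM and 873 with quantile normalization, and 1504 called lower became 3460 with TPM, 849 with median-of-ratios and 950 with the replicate block. Members called lower went from 3 to 5 when only genes averaging 5 FPKM or more were tested and 8 with TPM. Pathway genes called higher went from 1 to 0 with TPM, 0 with quantile normalization, 0 without trend, 0 with the replicate block and 0 to 2 with a library left out; those called lower went from 8 to 21 with TPM and 4 with the replicate block. Ppp3ca turned to -0.010 with TPM, and Ppp3cb to -0.16 with TPM and -0.0040 to 0.035 with a library left out. This fit could not be made without either unstimulated library. In the unstimulated pair, members at least 0.5 higher went from 2 to 4 with a pseudocount of 0.1, 1 with 5, and 5 with TPM. With TPM the median of all tested genes in that pair was 0.226.

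Libraries with the same letter did not deviate together (r = -0.0214 for A, 0.0445 for B, 0.00745 for C and -0.122 for D), so the letters were not taken to pair them; the replicate block gave 740 genotype calls over all genes against 994. With 4 libraries a group and unknown depth, the median SD between stimulated libraries was 0.0749 on the log2 scale.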
